A study of Mus musculus with 30 samples.

Results

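The transcripts of 10 genes that encode acute phase proteins were examined: Saa1, Saa2, Saa3 and Saa4 (serum amyloid A), Lcn2 (lipocalin 2), Orm1 and Orm2 (orosomucoids), Hp (haptoglobin), Itih4 (an inter-alpha-trypsin inhibitor heavy chain) and Crp (C-reactive protein). They were found by the gene symbol that the platform annotation gives to a probe. This yielded 13 probes of 10 genes, out of 46643 probes and 19406 named genes on the array. Hp, Itih4 and Crp had a pair of probes each, called a and b here, and each other gene had 1. The arrays measured liver and subcutaneous fat of male mice with 5 forms of the growth hormone receptor. In 569 mice the receptor ended at amino acid 569, in 391 mice at amino acid 391, in Box1 mice it carried a mutation in the Box1 region, in KO mice it was removed, and WT mice had the wild-type receptor. All mice, WT included, were 4 months old and had been fasted overnight before they were killed. Each tissue and genotype has 3 arrays, 30 in all. The series title describes the mutant mice as transgenic knock-ins. Whether the 3 arrays of a group came from different animals is not stated in the labels, and a p-value here covers the spread between arrays, part of which may be technical.

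As background, the acute phase response is the change in the liver's secreted proteins that follows injury or infection. Interleukin-6 acts on hepatocytes through its receptor, gp130 and the transcription factor STAT3, and interleukin-1 and tumour necrosis factor act through NF-kB, while C/EBP factors and glucocorticoids add to both routes. In mice the serum amyloid A proteins are among the most strongly induced, whereas Crp responds little in this species, unlike in humans. The growth hormone receptor is a cytokine receptor too. It engages the kinase JAK2 at Box1, and tyrosines further along its tail dock STAT5. The 391 truncation lacks those tyrosines and the 569 truncation keeps a part of them.

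The promoters of the members were searched for short sequences that these factors are known to bind, and those of 6 genes are shown because their transcripts fall into the groups described below. RefSeq promoters of build GRCm38.p6, running from 250 bases before the start of the gene to 50 after it, were at hand for 8 of the 10 genes; the others are Orm1 and Hp. Capitals mark every match, on either strand, of TTCNNNGAA or CTGGGAA (STAT3), the NF-kB consensus (GGGA, 1 base of any kind and TTTCC) or TTGCNNAA (C/EBP). The promoters are at chr7:46742931-46743230 on the minus strand (Saa1), chr7:46751583-46751882 on the plus strand (Saa2), chr2:32387690-32387989 on the minus strand (Lcn2), chr4:63362199-63362498 on the plus strand (Orm2), chr14:30886226-30886525 on the plus strand (Itih4) and chr1:172697806-172698105 on the plus strand (Crp).
Saa1: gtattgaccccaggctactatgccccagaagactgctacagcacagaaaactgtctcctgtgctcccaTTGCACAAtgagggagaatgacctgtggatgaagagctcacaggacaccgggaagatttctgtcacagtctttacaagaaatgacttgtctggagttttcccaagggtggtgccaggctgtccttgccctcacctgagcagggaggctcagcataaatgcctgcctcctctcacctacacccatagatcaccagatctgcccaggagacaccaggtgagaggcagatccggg
Saa2: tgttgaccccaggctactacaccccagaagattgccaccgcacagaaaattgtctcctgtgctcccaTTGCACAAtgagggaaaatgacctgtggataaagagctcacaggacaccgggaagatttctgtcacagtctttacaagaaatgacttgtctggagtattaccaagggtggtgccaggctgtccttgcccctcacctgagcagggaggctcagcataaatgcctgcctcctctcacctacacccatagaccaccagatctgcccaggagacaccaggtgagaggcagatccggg
Lcn2: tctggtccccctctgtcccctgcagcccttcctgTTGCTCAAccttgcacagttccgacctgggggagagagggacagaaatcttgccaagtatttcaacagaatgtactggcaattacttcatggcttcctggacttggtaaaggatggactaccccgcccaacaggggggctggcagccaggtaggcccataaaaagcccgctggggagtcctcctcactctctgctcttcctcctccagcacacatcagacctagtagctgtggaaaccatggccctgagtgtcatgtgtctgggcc
Orm2: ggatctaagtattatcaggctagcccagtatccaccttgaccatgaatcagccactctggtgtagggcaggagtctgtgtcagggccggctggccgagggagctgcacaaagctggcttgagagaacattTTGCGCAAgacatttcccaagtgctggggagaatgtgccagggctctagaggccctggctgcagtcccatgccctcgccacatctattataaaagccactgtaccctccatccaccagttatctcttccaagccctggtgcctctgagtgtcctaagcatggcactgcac
Itih4: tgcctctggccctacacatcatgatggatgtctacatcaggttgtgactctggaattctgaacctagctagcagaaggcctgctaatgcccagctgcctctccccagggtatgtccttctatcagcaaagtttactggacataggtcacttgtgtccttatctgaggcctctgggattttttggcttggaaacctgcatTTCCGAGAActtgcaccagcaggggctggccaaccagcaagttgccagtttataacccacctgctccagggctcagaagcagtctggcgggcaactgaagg
Crp: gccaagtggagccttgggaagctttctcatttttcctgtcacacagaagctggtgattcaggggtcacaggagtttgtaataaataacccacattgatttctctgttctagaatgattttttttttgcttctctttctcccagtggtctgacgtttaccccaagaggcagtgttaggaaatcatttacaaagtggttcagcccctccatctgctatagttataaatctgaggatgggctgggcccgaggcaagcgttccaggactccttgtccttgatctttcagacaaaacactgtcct
TTGCNNAA occurred in 6 of the 8 promoters, against 10.8% of all 27025 promoters in the table. Its first base lay at position -182 in Saa1, -183 in Saa2, -99 in Saa3, -216 in Lcn2 and -120 in Orm2, and Saa4 had matches at -245 and -52. Itih4 and Crp held none. The Saa1 and Saa2 promoters are near copies of each other, so their matches do not count as independent. TTCNNNGAA occurred in 1 of 8, in Itih4 at -51, against 8.47% of all promoters, and the same bases match the narrower TTCNNGGAA (1 of 8, against 4.94%) on the other strand. CTGGGAA was in 0 of 8 (11.1% of all) and the NF-kB consensus in 0 of 8 (0.385% of all). The looser forms were common everywhere, GGG and CC with 5 bases between them (NF-kB) in 6 of 8 against 50.4% and TTNNGNAA (C/EBP), which can overlap TTGCNNAA, in 7 of 8 against 40.7%. A match describes letters in the window and is not a site shown to be bound. TTCNNNGAA was searched as a STAT3 form, but its letters do not tell STAT3 from STAT5.

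Saa1 and Saa2 are neighbours and near copies of each other. Their promoters were identical at 287 of 301 aligned positions (95.3%), against at most 54.2% for any other pair of the 8. Saa3, Saa4, Saa1 and Saa2 follow each other on chromosome 7 with no other coding gene between them, and RefSeq lists each of the names Saa1 and Saa2 as a synonym of the other gene. Orm1 and Orm2 lie on either side of Orm3 on chromosome 4. Which copy a Saa1, Saa2, Orm1 or Orm2 probe measured is therefore uncertain.

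The deposited value is the ratio of a probe to its own median over the 15 arrays of the tissue, so it holds no absolute level, and members cannot be ranked against each other by level. Differences are fitted on log2 of that ratio (limma, 15 arrays of a tissue in 1 fit), mutant minus WT, and are given ± SE. Group means are given ± SD with n = 3. A probe is called at an adjusted p under 0.05 over all 46643 probes. Array medians ranged over 0.98 to 1.01. Only the comparisons of 569 with WT and of KO with 391 were made within a slide; in every other comparison of this report slide and genotype cannot be told apart. Ghr itself had a pair of probes whose position relative to the altered part is not given in the sources used here. One had liver ratios of 0.23 to 0.3 in Box1, 1.09 to 1.51 in KO and 0.92 to 1.27 in WT, and the other 0.96 to 1.28 in Box1, 0.81 to 1.4 in KO and 0.61 to 1.14 in WT, so neither checks the KO label. Pancreatic transcripts were present in replicates 2 and 3 of 391 liver, where 14 and 12 of 15 pancreatic markers exceeded 1 on the log2 scale, against 0 of 15 in each other liver array. Replicate 2 also had 10 of 13 skeletal muscle markers over 1.

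In liver, several of the members were higher in all 4 mutants than in WT. Saa1, Saa2, Lcn2, the first Hp probe and both Itih4 probes were higher in 12 of 12 mutant arrays than in any WT array, and Orm2 in 11 of 12. Over all probes, 0.313% had every mutant array above every WT array. In the mean of the 4 mutants against WT, 5 of 13 member probes rose (Saa1, Lcn2, Hp a, Itih4 a and Itih4 b) and 0 fell, against 0.926% of all probes called. The median difference was 0.66 over the 13 probes and 0.01 over all probes.

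**Figure D1:**
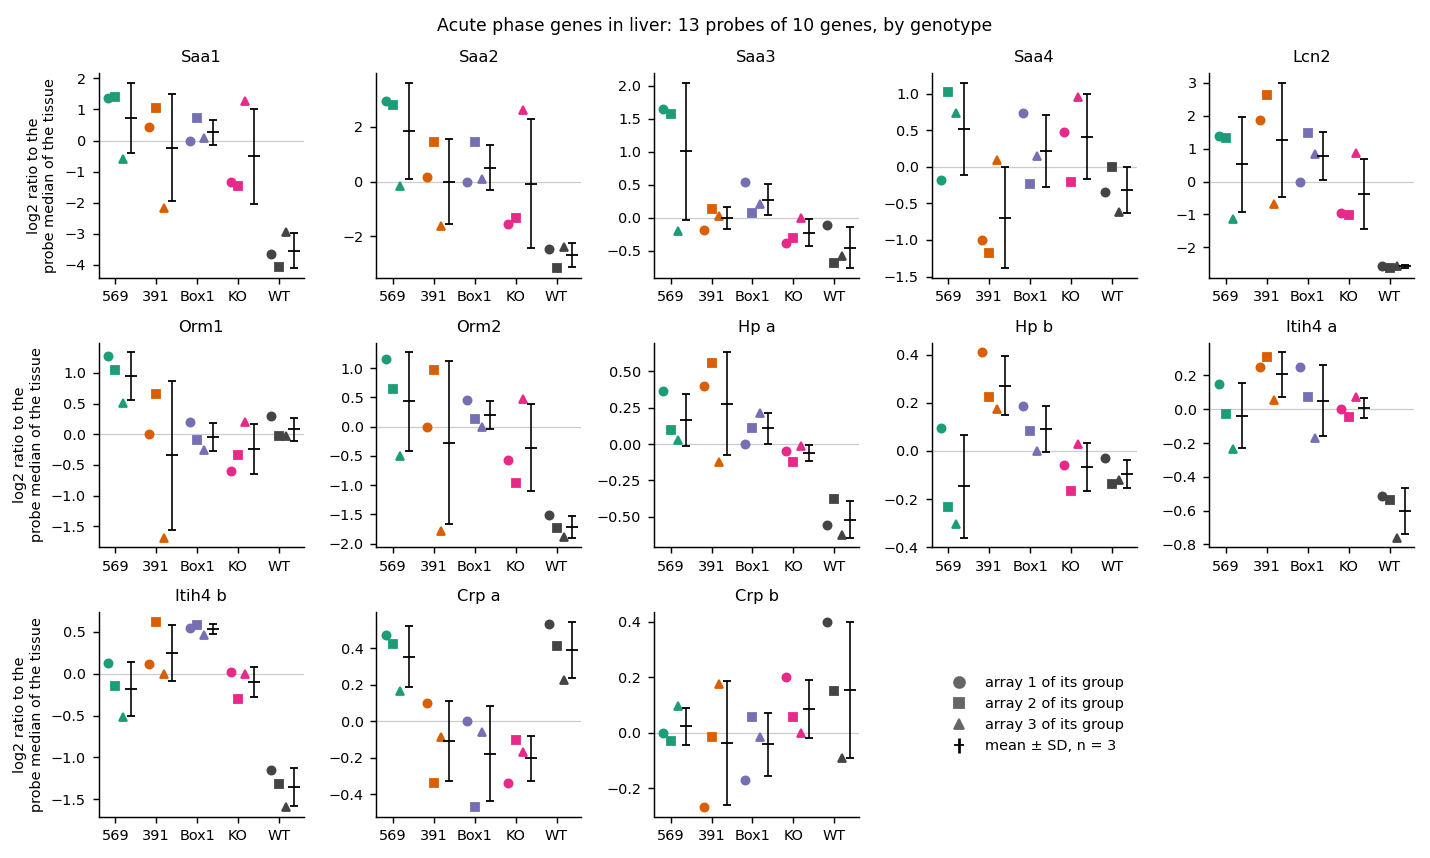
Log2 ratio (vertical axis) of the 13 acute phase probes in liver for 569, 391, Box1, KO and WT, with a symbol for each array and bars for mean ± SD, n = 3. All 12 mutant arrays lie above the 3 WT arrays for Saa1, Saa2, Lcn2, Hp a, Itih4 a and Itih4 b, and the symbols spread widely within 569, 391 and KO for Saa1, Saa2 and Lcn2.

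By genotype, 391 and Box1 each had 5 member probes up and 0 down, KO had 2 up and 1 down, and 569 had 0 called. The 5 probes called in 391 and the 5 called in Box1 were those called in the mean of the mutants (5 shared in each case), against 1.91% of all probes called in 391 and 1.32% in Box1. In KO both Itih4 probes rose and the first Crp probe fell, against 1.93%. In 569, limma called 0 members and 0.00858% of all probes. At an unadjusted p under 0.05 there were 9 of 13 members and 3268 of all 46643 probes. The robust form of eBayes called 1 member (Itih4 b) and so did a fit with array weights. Probes with all mutant arrays above all WT arrays numbered 8 of 13 in 569 (3.72% of all probes), 7 in 391 (9.18%), 9 in Box1 (11.5%) and 7 in KO (10.6%). Median differences over the 13 probes were 0.87 in 569, 0.80 in 391, 0.65 in Box1 and 0.61 in KO, where the medians over all probes lay between -0.02 and 0.02. These 4 comparisons share the 3 WT arrays. Without both 391 arrays that held pancreatic transcripts the comparison of 391 with WT called 5 member probes, with 5 shared, but it then rests on 1 array of 391 and assumes that this array varies like those of the other genotypes.

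**Figure D2:**
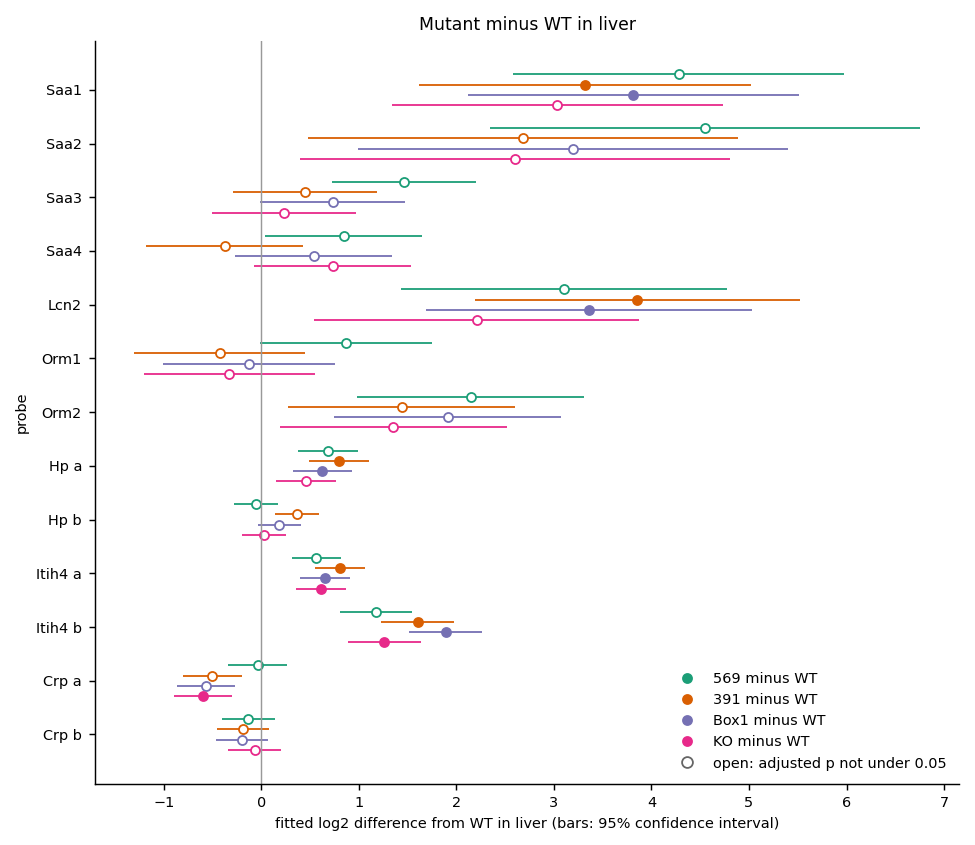
Fitted log2 difference from WT in liver (horizontal axis) of each acute phase probe for 569, 391, Box1 and KO, with 95% confidence intervals; filled points have an adjusted p under 0.05. The differences of Saa1, Saa2 and Lcn2 are the largest and have the widest intervals, and those of Itih4 are smaller and narrow.

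Saa1 and Saa2, which encode apolipoproteins of high-density lipoprotein during the acute phase, differed from WT by several fold and also varied widely between arrays of 1 genotype. Saa1 had liver ratios of 2.57, 2.66 and 0.67 in 569, 1.36, 2.07 and 0.22 in 391, 1, 1.65 and 1.05 in Box1, 0.4, 0.36 and 2.39 in KO, and 0.08, 0.06 and 0.13 in WT. Every mutant array was above every WT array, while single arrays of 569, 391 and KO departed by several fold from the others of their genotype. Saa1 rose by 3.61 ± 0.63 in the mean of the mutants (12.2-fold, adjusted p = 0.0112), by 3.32 ± 0.80 in 391 (adjusted p = 0.0468) and by 3.81 ± 0.80 in Box1 (adjusted p = 0.0295). The difference was 4.28 ± 0.80 in 569 (adjusted p = 0.173) and 3.04 ± 0.80 in KO (adjusted p = 0.0692), neither of which was called. The call was lost in 391 without any 1 array other than 391 replicate 3 (adjusted p = 0.0918 to 0.181), in Box1 without any 1 of its 6 arrays (0.0514 to 0.125), and in the mean of the mutants without WT replicate 2 (0.0903). It was also lost in 391 after quantile normalization (0.156), with 0.1 added to each ratio (0.102), with robust eBayes (0.139) and in its 6 arrays alone (0.143), in Box1 under the first 3 of these (0.0578, 0.0639 and 0.097), and in the mean with robust eBayes (0.0615). In Box1 the Saa1 difference stayed between 3.56 and 4.12 with an array left out. The fit of the 6 Box1 and WT arrays alone kept that call, and the lowest adjusted p among the alternatives was 4.04e-05.

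Saa2 followed the same arrays. Its ratios were 7.78, 6.98 and 0.89 in 569, 1.13, 2.76 and 0.32 in 391, 1, 2.74 and 1.06 in Box1, 0.34, 0.4 and 6.22 in KO, and 0.18, 0.11 and 0.19 in WT. The third array of 569 and of 391 was again low and the third of KO high, and again no mutant array reached down to WT. Its difference from WT was 3.26 ± 0.82 in the mean of the mutants (9.57-fold, adjusted p = 0.0858) and between 2.60 (KO) and 4.55 (569) by genotype (adjusted p = 0.173 to 0.277), so it was not called. The mean over the mutants was called when 569 replicate 3 (adjusted p = 0.0368), 391 replicate 3 (0.0418) or KO replicate 3 (0.0487) was left out.

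Saa3 and Saa4 behaved differently from this pair. Saa3, which in mice is made also outside the liver, by macrophages and adipocytes among others, had ratios of 3.13, 2.96 and 0.87 in 569, 0.88, 1.1 and 1.02 in 391, 1.45, 1.05 and 1.16 in Box1, 0.77, 0.81 and 1 in KO, and 0.93, 0.62 and 0.67 in WT. Replicates 1 and 2 of 569 stood above every other liver array. The difference in 569 was 1.46 ± 0.35 (adjusted p = 0.283) and, without replicate 3 of 569, 2.06 (adjusted p = 0.000309); in 391, Box1 and KO it lay between 0.23 and 0.73 (adjusted p = 0.413 to 0.873). Saa4, the constitutive serum amyloid A of lipoproteins, had ratios of 0.88, 2.03 and 1.66 in 569, 0.5, 0.44 and 1.07 in 391, 1.66, 0.85 and 1.11 in Box1, 1.39, 0.87 and 1.94 in KO, and 0.79, 1 and 0.65 in WT. Its groups overlapped in each comparison with WT, with differences between -0.38 (391) and 0.84 (569) and adjusted p values between 0.456 and 0.786.

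Lcn2 encodes a secreted protein that binds iron-loaded bacterial siderophores. Its ratios were 2.62, 2.49 and 0.45 in 569, 3.64, 6.22 and 0.62 in 391, 1, 2.77 and 1.8 in Box1, 0.51, 0.49 and 1.82 in KO, and 0.17, 0.16 and 0.17 in WT. The WT arrays were nearly equal, and the lowest mutant array, 569 replicate 3, was still above them. Lcn2 rose by 3.13 ± 0.62 in the mean of the mutants (8.76-fold, adjusted p = 0.0244), by 3.86 ± 0.78 in 391 (adjusted p = 0.0201) and by 3.36 ± 0.78 in Box1 (adjusted p = 0.0493). The difference was 3.10 in 569 (adjusted p = 0.328) and 2.21 in KO (adjusted p = 0.207). As with Saa1, the calls changed with the arrays and the fit used. In Box1 the difference stayed between 3.01 and 3.74 with an array left out. The fit of the 6 Box1 and WT arrays alone kept that call, and the lowest adjusted p among the alternatives was 0.00017. The call in 391 was lost without WT replicate 2 or 3 or 391 replicate 1 or 2 (adjusted p = 0.0618 to 0.0755), that in Box1 without any 1 of its 6 arrays (0.0779 to 0.192), and that in the mean without any 1 WT array (0.0797 to 0.126). Robust eBayes lost all 3 calls (0.0772 in 391, 0.136 in Box1 and 0.1 in the mean); the call in 391 was also lost after quantile normalization (0.0584) and in its 6 arrays alone (0.0867), and that in Box1 with 0.1 added to each ratio (0.0797).

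The orosomucoids, which are plasma carriers of basic and lipophilic molecules, parted from each other. Orm2 had ratios of 2.22, 1.56 and 0.71 in 569, 1, 1.95 and 0.29 in 391, 1.37, 1.1 and 1 in Box1, 0.67, 0.51 and 1.38 in KO, and 0.35, 0.3 and 0.27 in WT. Only replicate 3 of 391 fell within the WT range. The difference from WT was 1.71 ± 0.43 in the mean of the mutants (3.28-fold, adjusted p = 0.0866) and 1.90 without 391 replicate 3 (adjusted p = 0.00623). By genotype it ran between 1.35 in KO and 2.15 in 569 (adjusted p = 0.114 to 0.343). Orm2 was called in 391 without 391 replicate 3 (adjusted p = 0.0168). Fits of the 6 arrays alone called it in Box1 (adjusted p = 4.75e-05) and in KO (0.0433). Orm1 had ratios of 2.43, 2.06 and 1.43 in 569, 1, 1.57 and 0.31 in 391, 1.15, 0.94 and 0.84 in Box1, 0.66, 0.79 and 1.15 in KO, and 1.23, 0.98 and 0.98 in WT. Only the 569 arrays were all above WT, with a difference of 0.87 ± 0.41 (adjusted p = 0.723), and the other mutants differed by -0.43 to -0.13 (adjusted p = 0.773 to 0.952). The direction in 391 turned to 0.25 without 391 replicate 3.

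Haptoglobin binds free haemoglobin. The first Hp probe had ratios of 1.29, 1.07 and 1.02 in 569, 1.32, 1.47 and 0.92 in 391, 1, 1.08 and 1.16 in Box1, 0.97, 0.92 and 0.99 in KO, and 0.68, 0.77 and 0.65 in WT. The mutant arrays lay close together and all above WT. It rose by 0.64 ± 0.11 in the mean of the mutants (1.56-fold, adjusted p = 0.0119), by 0.80 ± 0.14 in 391 (adjusted p = 0.00922) and by 0.63 ± 0.14 in Box1 (adjusted p = 0.0437), and the difference was 0.68 in 569 (adjusted p = 0.23) and 0.46 in KO (adjusted p = 0.135). The call in Box1 was lost without any 1 of its 6 arrays (adjusted p = 0.0767 to 0.181) and after quantile normalization (0.063), and that in the mean without WT replicate 1 (0.0553) or 3 (0.1), while that in 391 held without each of its 6 arrays but was lost in the fit of those 6 alone (0.122). The second Hp probe did not follow the first. Its ratios were 1.07, 0.85 and 0.81 in 569, 1.33, 1.17 and 1.13 in 391, 1.14, 1.06 and 1 in Box1, 0.96, 0.89 and 1.02 in KO, and 0.98, 0.91 and 0.92 in WT. It was above WT in all arrays of 391 (0.37 ± 0.11, adjusted p = 0.104) and of Box1 (0.19 ± 0.11, adjusted p = 0.523), and the other 2 mutants overlapped WT (-0.05 in 569 and 0.03 in KO).

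Itih4 encodes a plasma protein of the inter-alpha-trypsin inhibitor family that is cleaved by kallikrein, and its second probe had the lowest adjusted p of the 13 in each comparison of a mutant with WT in liver. The first Itih4 probe had ratios of 1.11, 0.98 and 0.85 in 569, 1.19, 1.24 and 1.04 in 391, 1.19, 1.05 and 0.89 in Box1, 1, 0.97 and 1.05 in KO, and 0.7, 0.69 and 0.59 in WT. The second had 1.09, 0.9 and 0.7 in 569, 1.08, 1.54 and 1 in 391, 1.46, 1.5 and 1.38 in Box1, 1.01, 0.81 and 1 in KO, and 0.45, 0.4 and 0.33 in WT. On both probes each mutant array was above each WT array. The second probe rose by 1.60 ± 0.17 in 391 (3.04-fold, adjusted p = 0.000147), by 1.89 ± 0.17 in Box1 (3.71-fold, adjusted p = 2.11e-05), by 1.26 ± 0.17 in KO (2.40-fold, adjusted p = 0.00109) and by 1.48 ± 0.14 in the mean of the mutants (2.79-fold, adjusted p = 2.8e-05). The difference in 569, measured within a slide, was 1.18 ± 0.17 (2.26-fold, adjusted p = 0.0508), and 1.34 without 569 replicate 3 (adjusted p = 0.0204). Group means were -0.18 ± 0.32 in 569, 0.24 ± 0.33 in 391, 0.53 ± 0.06 in Box1, -0.10 ± 0.18 in KO and -1.36 ± 0.23 in WT (log2 ratio).

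The first Itih4 probe gave smaller differences in the same direction. It rose by 0.81 ± 0.12 in 391 (adjusted p = 0.00262), 0.65 ± 0.12 in Box1 (adjusted p = 0.0125) and 0.61 ± 0.12 in KO (adjusted p = 0.0149), and the difference in 569 was 0.57 ± 0.12 (adjusted p = 0.23). The 391 call held without each of the 6 arrays. The Box1 call was lost without WT replicate 3 (adjusted p = 0.0775), Box1 replicate 1 (0.0679) or Box1 replicate 2 (0.0599), and the KO call without WT replicate 3 (0.0764) or KO replicate 3 (0.0643). In 391, Box1, KO and the mean of the mutants the second probe kept its call in every alternative listed in the closing section.

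Crp, a pentraxin that binds phosphocholine, was the only member called lower than WT, on its first probe and in KO. The first Crp probe had ratios of 1.39, 1.34 and 1.12 in 569, 1.07, 0.79 and 0.94 in 391, 1, 0.72 and 0.96 in Box1, 0.79, 0.93 and 0.89 in KO, and 1.45, 1.33 and 1.17 in WT. The arrays of 391, Box1 and KO were all below WT, and those of 569 overlapped it. It fell by 0.60 ± 0.14 in KO (adjusted p = 0.0432), a call that was lost without any 1 of the 6 arrays (adjusted p = 0.0564 to 0.155). The differences were -0.50 in 391 (adjusted p = 0.0945), -0.57 in Box1 (adjusted p = 0.064) and -0.04 in 569 (adjusted p = 0.987). In Box1 the first Crp probe was called lower after quantile normalization (adjusted p = 0.042) and with array weights (0.0492). The second Crp probe stayed between 0.83 and 1.15 in the mutants and between 0.94 and 1.32 in WT, and its groups overlapped in each comparison with WT (adjusted p = 0.602 to 0.91).

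Arrays of 1 genotype differed most in Saa1, Saa2, Lcn2 and Orm2, and they differed together. The SD within genotypes was 1.55 for Saa2, 1.19 for Saa1, 1.17 for Lcn2, 0.81 for Orm2 and 0.61 for Orm1 on the log2 scale, against 0.13 for the median probe, and it was 0.25 for Itih4 b and 0.16 for Itih4 a. Replicate 3 of 569 was the lowest of its genotype in 11 of 13 member probes and replicate 3 of 391 in 9, while replicate 3 of KO was the highest of its genotype in 10. Ties are included, and such ranks were not counted over all probes, so they may not be particular to the members. After the mean of the genotype was subtracted from each of the 15 liver arrays, Saa1 correlated with Saa2 (Pearson r = 0.949, adjusted p = 0.0054; Spearman rho = 0.929, adjusted p = 0.00774) and with Lcn2 (r = 0.943, adjusted p = 0.0054; rho = 0.933, adjusted p = 0.00774). For Orm2 r was 0.889 (adjusted p = 0.0432) and rho 0.868 (adjusted p = 0.0909), and for Orm1 r was 0.834 (adjusted p = 0.0432) and rho 0.828 (adjusted p = 0.0909). Which copy the Saa1 and Saa2 probes measured is uncertain, so their r may not relate separate transcripts. Each p comes from an exact two-sided permutation of arrays within genotypes (7776 arrangements) and is adjusted over the 12 relations with Saa1. The other 8 probes had r between -0.508 and 0.642 (adjusted p = 0.142 to 0.922). With the 2 arrays farthest from the median of Saa1, KO replicate 3 and 391 replicate 3, dropped, r was 0.950 for Saa2, 0.919 for Lcn2, 0.818 for Orm2 and 0.761 for Orm1. The genotype means that had been subtracted still included those 2 arrays. These values therefore do not give the relation without them.

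**Figure D3:**
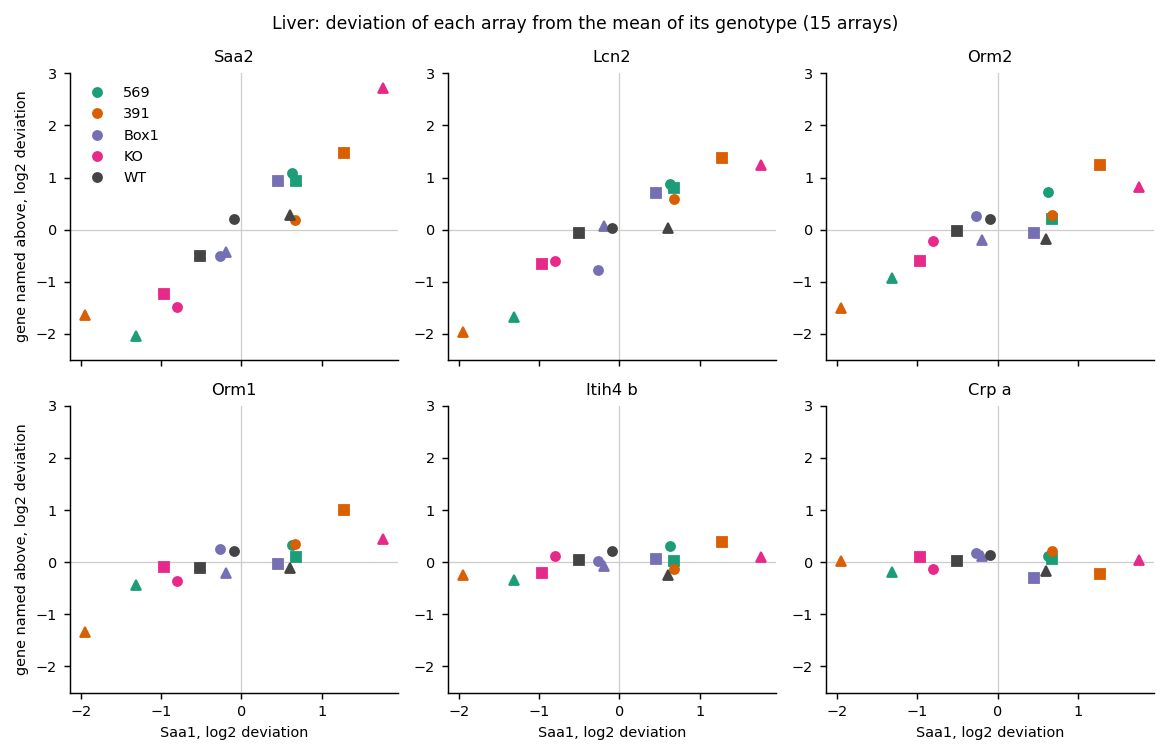
Deviation of each of the 15 liver arrays from the mean of its genotype (log2), for 6 probes on the vertical axes against Saa1 on the horizontal axis. Saa2, Lcn2, Orm2 and Orm1 rise along Saa1 (r = 0.949, 0.943, 0.889 and 0.834), and Itih4 b and Crp a stay close to 0.

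Markers of other cell types were read beside this spread. Every liver array had 0 of 12 neutrophil markers over 1 on the log2 scale, and the median of those markers ran between -0.10 and 0.16 in the mutants and between -0.05 and 0.08 in WT. Of 12 macrophage markers at most 1 exceeded 1, with array medians between -0.38 and 0.55 in the mutants and between -0.14 and -0.08 in WT. The difference from WT was above 0 for 12 of 12 macrophage markers in KO (median 0.44), 11 in Box1 (0.29), 9 in 391 (0.13) and 8 in 569 (0.05). Timd4, a receptor of resident macrophages, was the 1 marker called, in KO (0.96, adjusted p = 0.00308). Hepatocyte markers had array medians between -0.27 and 0.21 in the mutants and between -0.04 and 0 in WT. Pancreatic transcripts were in 391 replicates 2 and 3, of which one was the highest of 391 in Saa1 and the other the lowest. The part of any of these in the differences was not tested.

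Few member probes were called between the mutants. Between 391 and 569 limma called 1 of 13 probes, Hp b (0.42 ± 0.11, adjusted p = 0.0336), against 4.70% of all probes; it called 0 without 569 replicate 2 or 391 replicate 1, and 2 without 569 replicate 1, 391 replicate 2 or 391 replicate 3. In Box1 against 391, 0 were called (0.00429% of all probes), with 1 of 13 members and 2837 of all 46643 probes at an unadjusted p under 0.05. In KO against 391, made within a slide, 0 were called (0.180% of all probes), with 3 members and 3819 of all probes at an unadjusted p under 0.05. In KO against Box1 0 were called (0.148%), with 1 member and 4064 of all probes at that level. Robust eBayes and array weights also called 0 members in these 3 comparisons. For Saa1 the difference was -0.28 for KO against 391 (95% confidence interval -1.98 to 1.41), 0.49 for Box1 against 391 (-1.20 to 2.19), -0.78 for KO against Box1 (-2.47 to 0.92) and -0.96 for 391 against 569 (-2.66 to 0.74), so each interval holds differences of several fold in at least one direction. For Itih4 b the intervals were narrower, -0.71 to 0.03 for KO against 391, -0.08 to 0.66 for Box1 against 391, -0.9998 to -0.257 for KO against Box1 and 0.05 to 0.80 for 391 against 569. The difference of Itih4 b in KO against Box1 was -0.63 ± 0.17 (adjusted p = 0.246), with the 3 KO arrays below the 3 Box1 arrays, and the fit of those 6 arrays alone called 1 member probe, lower in KO.

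Against 569, the mean of 391, Box1 and KO was lower in 3 member probes and higher in 0, where 8.24% of all probes were called. Most of those went the other way: of all 46643 probes, 282 were called lower and 3561 higher. Saa3 fell by 0.99 ± 0.28 (adjusted p = 0.043), Orm1 by 1.16 ± 0.34 (adjusted p = 0.0462) and Crp a by 0.52 ± 0.11 (adjusted p = 0.0116). For Crp a each of the 9 arrays was below each of the 3 in 569, and for Saa3 and Orm1 the arrays overlapped. The count was 0 without 569 replicate 2 and 1 without Box1 replicate 2 or 3 or KO replicate 1 or 2. Itih4 b differed by 0.41 ± 0.14 (adjusted p = 0.102) and Saa1 by -0.89 ± 0.65 (adjusted p = 0.527).

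Other positive acute phase proteins moved in part with the members. Of 22 measured, 6 rose and 1 fell in the mean of the mutants, 5 and 1 in 391, 5 and 1 in Box1, 6 and 1 in KO, and 0 were called in 569; the median difference in the mean of the mutants was 0.12, against 0.01 over all probes. Serpina3n, a serine protease inhibitor induced in the acute phase, had ratios of 1, 0.65 and 0.54 in 569, 1.24, 1.56 and 1.08 in 391, 1.04, 1.44 and 0.99 in Box1, 0.96, 1 and 1.18 in KO, and 0.45, 0.28 and 0.41 in WT, and it rose by 1.45 ± 0.18 in the mean (adjusted p = 0.00047). Every mutant array was above WT. Mt1, a metallothionein that binds zinc, had ratios of 1.07, 0.91 and 0.2 in 569, 1.37, 1.47 and 1.11 in 391, 1, 0.67 and 1 in Box1, 1.31, 1.21 and 1.31 in KO, and 0.09, 0.17 and 0.11 in WT (3.01 ± 0.35, adjusted p = 0.000281). Its lowest mutant array was 569 replicate 3, the array that was also lowest of 569 for Saa1, Saa2 and Lcn2.

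Il1rn, the interleukin-1 receptor antagonist, rose by 0.50 ± 0.09 (adjusted p = 0.0108). Hamp2, of the hepcidin family, split the mutants. Its ratios were 0.05, 0.03 and 0.09 in 569, between 1.1 and 1.17 in 391, between 1.02 and 1.06 in Box1 and between 0.96 and 1.08 in KO, against 0.03, 0.03 and 0.01 in WT; the last is the lowest ratio in the files. Mt2 and Lrg1 also rose (1.90, adjusted p = 0.0143, and 0.64, adjusted p = 0.0411), and the terminal complement component C9 fell, with ratios of 2.03, 2.64 and 2.63 in 569, 0.53 to 0.98 in 391, 0.65 to 1 in Box1, 0.71 to 1.14 in KO, and 1.98, 1.93 and 2.17 in WT (-0.99 ± 0.18, adjusted p = 0.0129); these 3 were chosen after their values were seen. Of 9 negative acute phase proteins, which fall when the positive ones rise, 1 was called in the mean of the mutants: Serpina7, thyroxine-binding globulin, rose by 1.65 ± 0.32 (adjusted p = 0.024). Albumin (Alb) differed by 0.45 ± 0.12 (adjusted p = 0.116), Apoa2 by 0.65 (adjusted p = 0.502) and Serpina6, the corticosteroid-binding globulin, by 0.68 (adjusted p = 0.581).

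**Figure D4:**
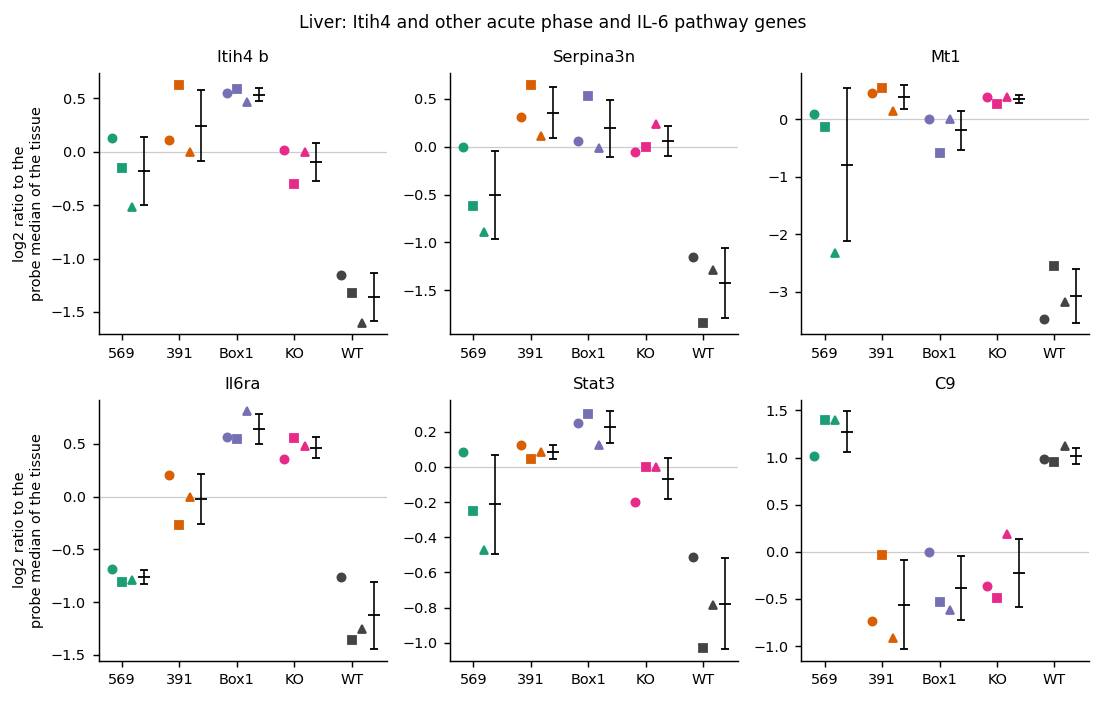
Log2 ratio in liver (vertical axis) of Itih4 b, Serpina3n, Mt1, Il6ra, Stat3 and C9 for 569, 391, Box1, KO and WT, with a point for each array and bars for mean ± SD, n = 3. Itih4 b, Serpina3n, Mt1 and Stat3 are above WT in each mutant array, for Mt1 only narrowly in replicate 3 of 569. Il6ra is near WT in 569 and higher in the other mutants, and C9 is near WT in 569 and lower in the others.

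No transcript of the cytokines that start the response was called in the mean of the mutants. Of 11 cytokines 0 were called there and in 569 and KO, and Ctf1 (cardiotrophin 1) was called in 391 (0.45 ± 0.10, adjusted p = 0.0419) and in Box1 (0.46 ± 0.10, adjusted p = 0.0438). Il1b had a difference of -0.70 ± 0.20 in the mean (adjusted p = 0.135), Il11 of 0.31 (adjusted p = 0.447) and Clcf1 of 0.21 (adjusted p = 0.471). A probe near background would also give such values, and signal over background is unknown.

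Of 11 cytokine receptors, 1 rose in the mean of the mutants, the interleukin-6 receptor Il6ra. Its ratios were 0.62, 0.57 and 0.58 in 569, 1.15, 0.83 and 1 in 391, 1.48, 1.46 and 1.75 in Box1, 1.28, 1.47 and 1.39 in KO, and 0.59, 0.39 and 0.42 in WT. The arrays of 391, Box1 and KO were all above WT and those of 569 overlapped it. Il6ra rose by 1.20 ± 0.11 in the mean (adjusted p = 3.3e-05), 1.10 ± 0.14 in 391, 1.76 ± 0.14 in Box1 (adjusted p = 5.69e-06) and 1.59 ± 0.14 in KO. Tnfrsf1a, the main receptor of tumour necrosis factor, differed by 0.42 (adjusted p = 0.126), Tnfrsf1b by 0.60 (adjusted p = 0.318) and Il1rap, the accessory protein of the interleukin-1 receptor, by -0.32 (adjusted p = 0.298; it fell in 391 by 0.62, adjusted p = 0.0424).

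Of 23 signal transducers and transcription factors, Stat3 alone was called in the mean of the mutants; by genotype, 1 rose and 1 fell in 391, 2 rose in Box1 and 2 in KO. Its ratios were 1.06, 0.84 and 0.72 in 569, 1.09, 1.03 and 1.06 in 391, 1.19, 1.23 and 1.09 in Box1, 0.87, 1 and 1 in KO, and 0.7, 0.49 and 0.58 in WT, so each mutant array was above each WT array. It rose by 0.78 ± 0.11 in the mean (adjusted p = 0.00156), and it was called in 391, Box1 and KO. The others called were Bcl3, which fell in 391 by 0.60 (adjusted p = 0.0388), the kinase Jak2, which rose in Box1 by 0.64 (adjusted p = 0.0173), and Nfkbib, an inhibitor of NF-kB, which rose in KO by 0.73 (adjusted p = 0.0216); Jak2 and Nfkbib were picked with their values known. For the mean of the mutants, Rela differed by -0.27 (adjusted p = 0.116), Relb by 0.30 (adjusted p = 0.203) and Bcl3 by -0.33 (adjusted p = 0.227), all of them of the NF-kB group. Of 12 genes of the glucocorticoid receptor and its targets 0 were called in the mean of the mutants, with a median difference of 0.37, and 0 in Box1, while 2 rose in 391 (median 0.50) and 1 in KO (median 0.16). Hsd11b1, which regenerates active glucocorticoid, rose by 0.55 ± 0.13 in 391 (adjusted p = 0.0388) and by 0.55 ± 0.13 in KO (adjusted p = 0.0413), and Cdkn1a, an inhibitor of the cell cycle, by 2.98 ± 0.58 in 391 (adjusted p = 0.0147). In the mean of the mutants Hsd11b1 differed by 0.40 ± 0.10 (adjusted p = 0.0863), Per1 by 0.85 (adjusted p = 0.232), Zbtb16 by 0.54 (adjusted p = 0.27) and Cdkn1a by 1.30 (adjusted p = 0.281). Of 12 receptors and partners of the acute phase proteins 1 was called in the mean, Scarb1, a receptor of high-density lipoprotein, which rose by 1.26 ± 0.21 (adjusted p = 0.00779). Ager differed by 0.24 (adjusted p = 0.403), Fpr2 by 0.57 (adjusted p = 0.501) and Cd163l1 by -0.18 (adjusted p = 0.52). In 569 against WT, 0 genes of these 5 groups were called.

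Over the 15 liver arrays, the genes outside the 10 members whose pattern was most like that of Itih4 b were Stat3 (another Stat3 probe, Pearson r = 0.925), Serpina3n (r = 0.910), Foxp1 (0.878), Golt1b (0.858), Atp11a (0.857), Mt1 (0.853), Obox3 (0.849) and Puf60 (0.845). Outside the members, those most like Saa1 were Mbnl1 (r = 0.893), Fgl1 (0.869), Foxp1 (0.855), Brix1 (0.850), Rab28 (0.809), Lpin1 (0.806), Ttc5 (0.803) and Bptf (0.802). All 15 arrays share the same genotypes and slides, and the r is a description. The genes near Itih4 differ from WT in part: Atp11a rose by 0.95 ± 0.13 (adjusted p = 0.00155), Golt1b by 0.33 ± 0.06 (adjusted p = 0.0104) and the other Stat3 probe by 0.66 ± 0.11 (adjusted p = 0.00715), and Obox3 and Puf60 were not called (adjusted p = 0.165 and 0.0708). Of the genes near Saa1, Lpin1, a phosphatidate phosphatase of fasting liver, rose by 1.73 ± 0.32 (adjusted p = 0.0155), and the other 7 were not called (adjusted p = 0.185 to 0.464). With the genotype means removed, r with Saa1 was 0.879 for Mbnl1, 0.853 for Fgl1 and 0.467 for Lpin1, and between 0.467 and 0.879 for all 8 genes. With Itih4 b it was 0.603 for Stat3, 0.640 for Serpina3n, 0.674 for Foxp1, 0.142 for Golt1b, -0.104 for Atp11a, 0.540 for Mt1, 0.577 for Obox3 and 0.527 for Puf60. For the genes of both sets each r was lower than before. They had been picked for a high r over the same arrays.

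In subcutaneous fat no member was called in any comparison. Limma called 0 of 13 probes in 569 (0% of all probes), 391 (0.0129%), Box1 (0.00214%) and KO (0%) against WT. It also called 0 in the mean of the mutants against WT (0%) and in KO against 391 (0.0172%). At an unadjusted p under 0.05 there were 0 members in each, and between 2118 and 4178 of all 46643 probes. Robust eBayes and array weights also called 0 members. The medians of the differences from WT were -0.11 in 569, -0.38 in 391, -0.03 in Box1 and -0.13 in KO. The lowest adjusted p was 0.567, for Saa3 in 569. Every 391 array lay below every WT array for 3 of 13 member probes and for 2367 of all 46643 probes. Every Box1 array lay above every WT array for 1 of 13 member probes and for 3123 of all probes. The genes of the 7 lists described above were not called in fat either.

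**Figure D5:**
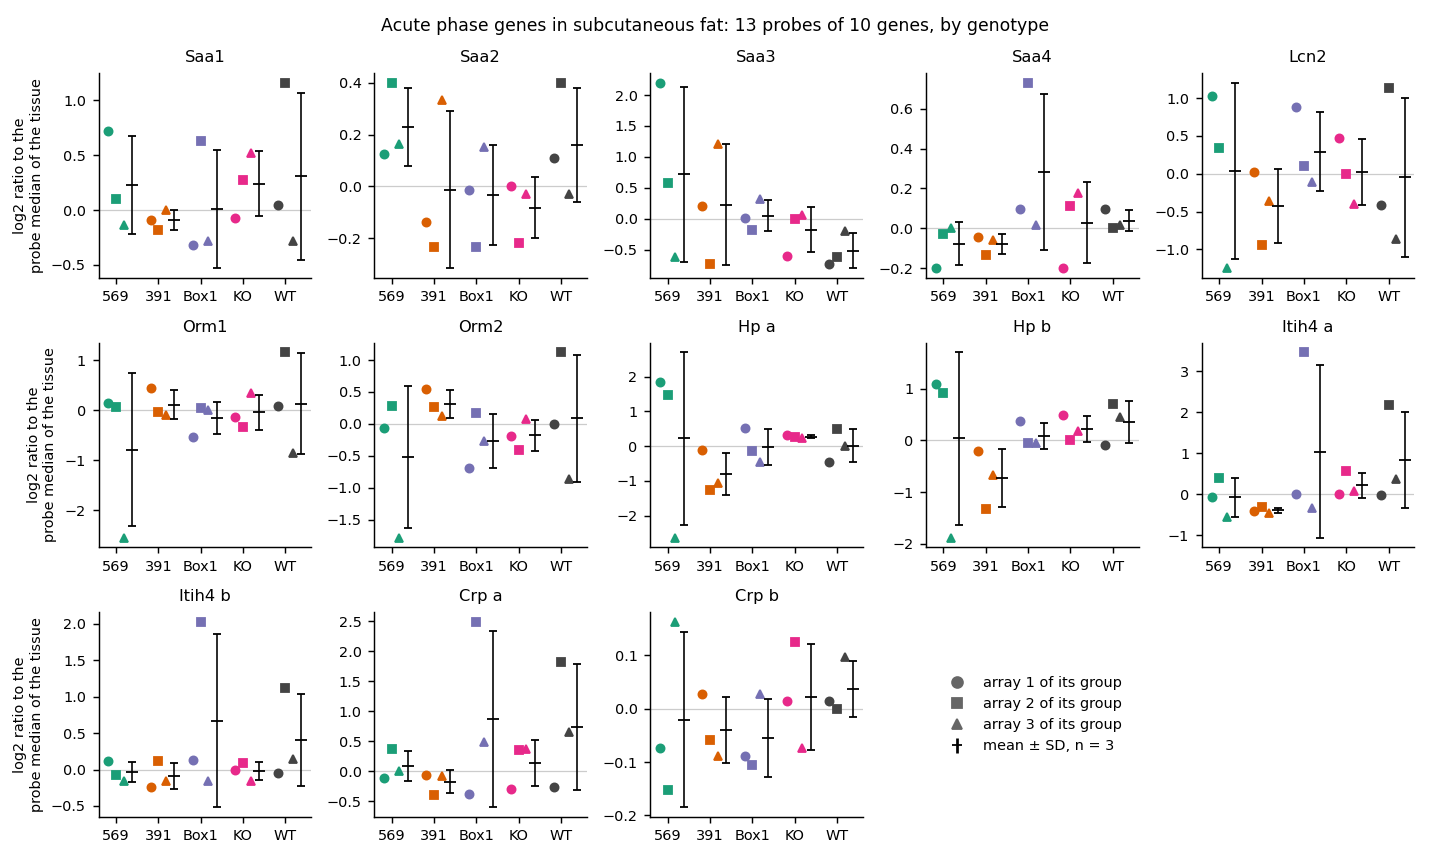
Log2 ratio (vertical axis) of the 13 acute phase probes in subcutaneous fat for 569, 391, Box1, KO and WT, with a symbol for each array and bars for mean ± SD, n = 3. Mutant and WT arrays overlap except for Saa4, Hp b and Itih4 a in 391, where all are lower than WT, and Saa3 in Box1, where all are higher; replicate 2 of Box1 and of WT stand high for Itih4 and Crp a, and replicate 3 of 569 stands low for Hp and the orosomucoids.

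Single arrays set the spread of the members in fat. Hp a, which adipocytes are known to express, had ratios of 3.57, 2.78 and 0.16 in 569, 0.93, 0.42 and 0.48 in 391, 1.45, 0.9 and 0.73 in Box1, 1.24, 1.21 and 1.18 in KO, and 0.73, 1.4 and 1 in WT. The array at 0.16, replicate 3 of 569, also had the lowest fat ratios of Orm1 (0.17), Orm2 (0.29), Lcn2 (0.42) and Hp b (0.27). In that array 13 of 13 skeletal muscle markers exceeded 1 on the log2 scale, and markers of several other cell types were low together. The median was -2.29 for adipocyte, -2.05 for macrophage, -1.56 for endothelial and -2.56 for lymphocyte markers. A low lymphocyte median was not particular to that array. It was -1.56 and -2.12 in replicates 1 and 2 of 569, which had the highest Hp a ratios. It was -2.32 in Box1 replicate 3 and -2.25 in KO replicate 2. KO replicate 3 and WT replicate 2 (-1.03) were low as well, and the remaining fat arrays lay between 0 and 0.70. Fewer cells of a type and less RNA per cell cannot be told apart in such samples, and the part of any of these in the member values was not tested. Skeletal muscle markers exceeded 1 for 6 or more of 13 genes in 7 of the 12 mutant fat arrays and in 0 of the 3 WT arrays. Without replicate 3 of 569, 0 members were called in 569 against WT and in the mean of the mutants.

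Itih4 a had fat ratios of 0.95, 1.32 and 0.68 in 569, 0.76, 0.8 and 0.73 in 391, 1, 11.04 and 0.79 in Box1, 1.01, 1.48 and 1.06 in KO, and 0.99, 4.52 and 1.29 in WT. The high values were replicate 2 of Box1 and replicate 2 of WT, in which Crp a also stood at 5.63 and 3.53, against 0.76 to 1.57 in the other fat arrays. In the same arrays 6 of 11 hepatocyte markers exceeded 1, among them Ttr (transthyretin), which had ratios of 41.4 and 13.96 there, while Alb had 1.32 and 0.95. Without both arrays, 0 members were called in fat in each comparison with WT.

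Saa3 had fat ratios of 4.6, 1.49 and 0.65 in 569, 1.16, 0.6 and 2.32 in 391, 1.01, 0.88 and 1.25 in Box1, 0.66, 1 and 1.04 in KO, and 0.6, 0.65 and 0.87 in WT. Its difference in 569 was 1.24 ± 0.60 (adjusted p = 0.567) and 569 overlapped WT, while the 3 Box1 arrays lay just above the 3 WT arrays. Lcn2 had 2.04, 1.26 and 0.42 in 569, 1.02, 0.52 and 0.78 in 391, 1.85, 1.07 and 0.93 in Box1, 1.39, 1 and 0.76 in KO, and 0.75, 2.2 and 0.55 in WT. Saa1 ran between 0.8 and 1.65 in the mutants and between 0.82 and 2.24 in WT, and Saa2 between 0.85 and 1.32 in the mutants and between 0.98 and 1.32 in WT, and the groups overlapped for both.

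Whether the differences from WT differed between liver and fat was tested directly, and 0 of 13 probes were called in each of the 4 tests. Of all probes, 0% were called for 569, 0.227% for 391, 0.148% for Box1 and 0.341% for KO, and robust eBayes and array weights also called 0 members. At an unadjusted p under 0.05 there were 7 members for 569, 6 for 391, 5 for Box1 and 3 for KO. Of all 46643 probes, 3614, 3342, 2594 and 3972 were at that level, in the same order. For Saa1 the liver difference exceeded that in fat by 4.36 ± 0.98 in 569 (adjusted p = 0.44), 3.72 ± 0.98 in 391 (adjusted p = 0.195), 4.11 ± 0.98 in Box1 (adjusted p = 0.157) and 3.10 ± 0.98 in KO (adjusted p = 0.261). For Itih4 b it did so by 2.10 ± 0.51 in 391 (adjusted p = 0.128), 1.63 ± 0.51 in Box1 (adjusted p = 0.507) and 1.69 ± 0.51 in KO (adjusted p = 0.22). Without 391 replicate 3 of liver 2 members were called for 391, and without Box1 replicate 2 of fat 1 for Box1.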

How the data were processed

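Total RNA from frozen liver and subcutaneous fat was extracted on columns, and biotin-labelled targets were hybridized to Illumina bead arrays, per the labels' protocols. How the authors treated background and normalized, and with which software, is not given in the sources used here. Their deposited files hold a ratio with 2 decimals. The values show what it is relative to: within a tissue, each of the 46643 probes has a median of exactly 1 across 15 arrays. Depth or signal over background is not in a ratio, no offset or filter on dim probes was used, although both had been planned, and 3 arrays per group limit the precision.

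Probes were named through the platform annotation, in which 32794 probes have 1 gene symbol, 55 have several and 13794 have none. Linear models of the log2 ratio came from limma 3.58.1 under R 4.3.3 (lmFit, then contrasts.fit and eBayes), for a tissue at a time, and with all 30 arrays for the differences between tissues. Tests were two-sided, with Benjamini-Hochberg adjustment over all 46643 probes. The script was tested on simulated data. Of several probes for a gene outside the members, the one that varied most (SD) within the tissue was used. The genes named are every member probe, up to 4 genes of each of 17 lists (7 of pathways, 10 of markers) with the smallest adjusted p in the mean of the mutants, defining markers a result turns on, and the 8 genes most like Saa1 and like Itih4 in pattern. The members, lists and tests were chosen with earlier results of these data known.

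The labels name the slide: WT and 569 of a tissue shared one, 391 and KO of a tissue another, and Box1 of both tissues the remaining slide, 6 arrays each. No slide block could be fitted. Replicate numbers follow accession order and only name arrays, and no 2 arrays held identical values. Alternatives were quantile normalization, 0.1 added to each ratio, array weights, only probes with 1 gene symbol, robust eBayes, the 6 arrays of a comparison alone, each array left out in turn, and the arrays with pancreatic transcripts left out. The arrays left out for hepatocyte or adipocyte markers in fat were chosen after seeing the data. Promoters and motifs were read in Python 3.11.15 from a RefSeq table of build GRCm38.p6, and aligned with Biopython 1.88.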

Additional observations from a re-analysis of the deposited data

How the results depend on the processing

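No paired analysis was possible because the labels carry no replicate numbers. The larger changes in the count of member probes called were as follows, and smaller changes are left out. In 569 against WT (0) it was 1 with array weights, 1 over probes with 1 gene symbol, 1 with robust eBayes and 0 to 2 with an array left out. In 391 against WT (5) it was 3 after quantile normalization, 3 with robust eBayes, 2 in its 6 arrays alone and 3 to 6 with an array left out. In Box1 against WT (5) it was 3 with 0.1 added, 3 with robust eBayes, 8 in its 6 arrays alone and 1 to 2 with an array left out. In KO against WT (3) it was 7 in its 6 arrays alone and 1 to 2 with an array left out. In the mean of the mutants (5) it was 3 with robust eBayes and 3 to 7 with an array left out, and in 391, Box1 and KO against 569 (3) it was 1 and 0 to 3. In 391 against 569 (1) it was 0 after quantile normalization, 0 in its 6 arrays alone and 0 to 2 with an array left out, and in KO against Box1 (0) it was 1 in its 6 arrays alone. The tests between tissues ranged over 0 to 2 for 391 and 0 to 1 for Box1 with an array left out. Fewer arrays and another estimate of the spread enter these fits; which of them moved a count was not tested. The directions that turned belonged to differences that were not called: in 569, Hp b (0.0101 after quantile normalization, -0.17 to 0.0267 with an array left out) and Crp a (0.0168, and -0.12 to 0.0573); in KO, Hp b (-0.0042 after quantile normalization, -0.0183 to 0.0800) and Crp b (-0.19 to 0.0554); in 391, Orm1 (-0.92 to 0.25); and in the mean of the mutants, Orm1 (0.0140 with 0.1 added, 0.0348 with array weights, 0.0834 without the arrays with pancreatic transcripts, -0.13 to 0.16 with an array left out). Signal over background is unknown, so a member near background cannot be told from a steady one.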
